A study of Mus musculus with 5 samples.

Results

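Tnfrsf4 and Tnfrsf9 encode the co-stimulatory receptors OX40 and 4-1BB of the tumor necrosis factor (TNF) receptor family, and are 2 of the 11924 genes listed in the deposited single-cell tables. They were taken by name and not by a cut on their measured values, though earlier results of these data were known. Both receptors are scarce on resting T cells and appear after antigen recognition, and regulatory T cells (Tregs) can carry them without fresh stimulation. When the ligands OX40L (Tnfsf4) or 4-1BBL (Tnfsf9) on antigen-presenting cells engage them, TRAF adaptor proteins are recruited, canonical and non-canonical NF-kB signalling is switched on, and survival genes such as Bcl2l1 are transcribed. Agonist antibodies against both receptors are studied in tumor immunology.

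The sorted cells are called SMARTA cells: CD4 T cells from mice transgenic for 1 T cell receptor. Their RNA was measured by droplet single-cell sequencing of 3′ transcript ends. There were 5 libraries, 1 per group, and every label gives the genotype C57BL/6. Naive SMARTA cells came from spleen. The other 4 libraries were CD4+CD45.1+ cells taken on day 8 of tumor growth from the tumor-side inguinal node. One of them was untreated, and one came from mice given anti-CTLA4 antibody, which blocks an inhibitory receptor of T cells, on days 0, 2 and 5. The third is labelled Treg-depleted and came from mice given diphtheria toxin on days 0 and 2. The last had toxin and antibody on those days and is called the combined library here. The protocols name the tumor as MC38 in one place and PyMG in another, and the text of the series speaks of an isotype antibody that the untreated library's labels do not give. The allele that makes Tregs sensitive to toxin, its promoter and how many mice gave the cells of each library are not given in the sources used here.

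The libraries held between 1099 (untreated) and 7955 cells (naive), and between 3825958 and 27967273 UMIs (unique molecular identifiers, which count captured RNA molecules). Median depth ran from 1683 UMIs per cell in the naive library to 5208.5 in the library labelled Treg-depleted. Pairs of libraries shared between 0 and 10 cell barcodes. The Treg label does not match the Treg marker: Foxp3, the lineage factor of Tregs, was seen in 58.7% of cells of the library labelled Treg-depleted and in 38.0% of the combined library, against 0.905% of naive, 1.46% of untreated and 1.18% of antibody cells. A UMI of a variable gene of the SMARTA receptor (Trbv13-1 or Trav14d-3-dv8) was seen in 34.4% of naive, 63.2% of untreated and 73.6% of antibody cells, and in 35.2% and 37.6% of cells of the 2 toxin libraries, the one labelled Treg-depleted first. Each group is a single library, so no replicate spread can be given and nothing was tested. All intervals below are exact 95% intervals that cover counting error only.

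Both genes lie on the plus strand of mouse chromosome 4 (GRCm38, GENCODE M21). Tnfrsf9 (ENSMUSG00000028965.13) spans 150914562 to 150946102 and Tnfrsf4 (ENSMUSG00000029075.6) spans 156013843 to 156016612. Tnfrsf4 is followed after 9551 bases by Tnfrsf18, which encodes GITR, another co-stimulatory receptor of the family. RefSeq (GRCm38.p6) gives 1 promoter window for Tnfrsf4 and 2 for Tnfrsf9, each of 300 bases with 250 before and 50 after a start site. They are shown because AP-1, IRF4 and NF-kB act downstream of the T cell receptor and of these receptors themselves. Capitals mark matches, on either strand, to the AP-1 motif TGANTCA, to the core of IRF sites AANNGAAA and to the kappa B consensus.
Tnfrsf4, chr4:156013445-156013744, plus strand: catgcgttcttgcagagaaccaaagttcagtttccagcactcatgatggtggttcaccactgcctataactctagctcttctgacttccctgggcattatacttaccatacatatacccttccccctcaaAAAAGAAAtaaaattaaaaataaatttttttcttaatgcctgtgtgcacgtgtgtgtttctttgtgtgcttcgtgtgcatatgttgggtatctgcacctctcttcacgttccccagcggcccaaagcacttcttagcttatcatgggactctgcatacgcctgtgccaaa
Tnfrsf9 upstream start, chr4:150919905-150920204, plus strand: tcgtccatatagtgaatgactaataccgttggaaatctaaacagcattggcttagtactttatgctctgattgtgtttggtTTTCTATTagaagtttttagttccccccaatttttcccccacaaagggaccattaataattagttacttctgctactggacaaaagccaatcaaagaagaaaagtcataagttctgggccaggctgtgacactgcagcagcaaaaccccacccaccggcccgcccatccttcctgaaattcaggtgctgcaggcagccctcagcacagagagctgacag
Tnfrsf9 downstream start, chr4:150927749-150928048, plus strand: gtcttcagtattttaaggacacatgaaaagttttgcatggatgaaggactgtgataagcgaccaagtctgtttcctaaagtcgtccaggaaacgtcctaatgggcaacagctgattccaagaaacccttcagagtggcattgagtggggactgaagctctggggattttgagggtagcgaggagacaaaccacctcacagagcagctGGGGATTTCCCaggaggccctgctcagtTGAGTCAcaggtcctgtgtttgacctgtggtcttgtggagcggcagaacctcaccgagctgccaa
The downstream Tnfrsf9 window held 1 AP-1 match and 2 overlapping kappa B matches in the run GGGGATTTCCC. Of all 32851 promoter windows, 7.81% held an AP-1 match and 8.46% a kappa B match. The Tnfrsf4 window and the upstream Tnfrsf9 window held 1 IRF core match each, as did 23.9% of all windows. Both Tnfrsf9 start sites are also starts of GENCODE transcripts, whereas the first GENCODE start of Tnfrsf4 lies 148 bases downstream of the RefSeq one, outside the window. A match is a run of letters, and no binding was measured.

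In naive cells both transcripts were rare. Levels are given as CPM, UMIs per 1000000 UMIs of the listed genes. Tnfrsf4 stood at 23.2 CPM (20.8 to 25.9) in the naive library, 279 (262 to 296) in the untreated, 479 (471 to 487) in the antibody, 1814 (1793 to 1834) in the library labelled Treg-depleted and 1843 (1823 to 1864) in the combined library. Each library thus stood above the one before it, though the intervals of the last pair overlap. Tnfrsf9 stood at 23.2 CPM (20.8 to 25.9) in the naive library, 135 (124 to 147) in the untreated, 52.9 (50.2 to 55.6) in the antibody, 571 (560 to 583) in the library labelled Treg-depleted and 484 (473 to 494) in the combined library. Its order differed from that of Tnfrsf4: the antibody library was below the untreated one, and the combined library below the one labelled Treg-depleted. No neighbouring libraries in the order of Tnfrsf9 had overlapping intervals.

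**Figure D1:**
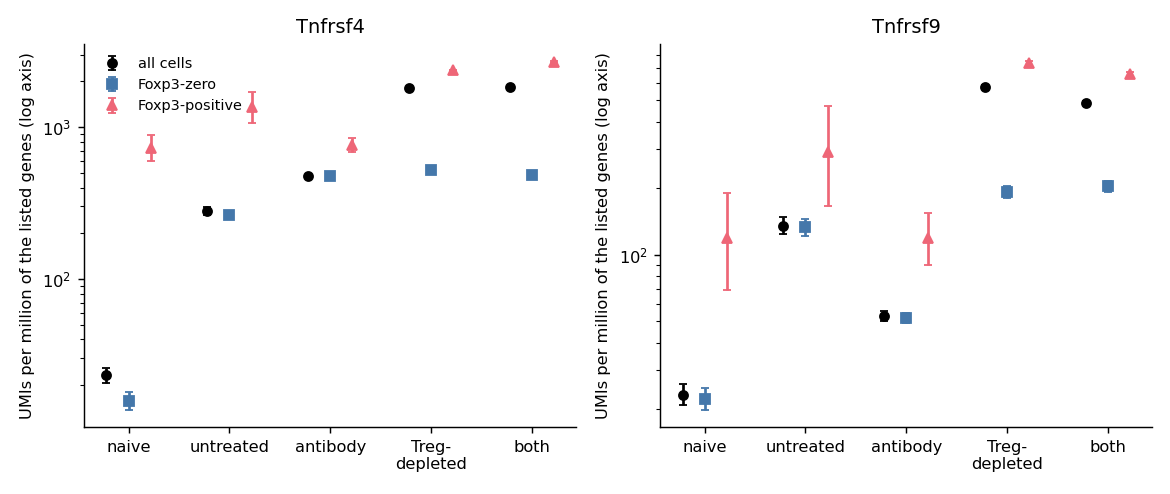
Levels of Tnfrsf4 (left) and Tnfrsf9 (right) in CPM, on a log axis, for all cells, Foxp3-zero cells and Foxp3-positive cells of each library; bars are exact 95% Poisson intervals. Foxp3-positive cells lie above Foxp3-zero cells in all 5 libraries for both genes, and Foxp3-zero cells of the 2 toxin libraries lie far below the level over all their cells.

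Tumor-node cells without treatment had 12.0-fold more Tnfrsf4 (10.6 to 13.6) and 5.81-fold more Tnfrsf9 (5.05 to 6.70) than naive splenic cells. Of the 6814 genes with enough counts (a mean of 25 CPM and 30 UMIs in all), 5.34% differed upward by a factor of 2 or more and 5.53% downward. The share of cells with a UMI was taken after each cell had been thinned to 1000 UMIs, so that depth does not set it. For Tnfrsf4 that share was 1.46% in naive and 16.2% in untreated cells, and before thinning 2.33% and 32.7%. For Tnfrsf9 it was 1.495% and 9.66%, and before thinning 2.63% and 23.2%. Tissue and tumor exposure differ together here and cannot be told apart.

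Foxp3-positive cells were few in the naive library, 72 of 7955, but they held 32.8% of its Tnfrsf4 UMIs (27.7 to 38.3). Of these 72 cells 34.7% had a Tnfrsf4 UMI after thinning, against 1.15% of Foxp3-zero cells. Tnfrsf9 was found in 5.56% of them (1.53 to 13.6) and in 1.46% of Foxp3-zero cells. Naive Foxp3-zero cells alone therefore had 15.8 CPM of Tnfrsf4, and the untreated library's Foxp3-zero cells, at 263, were 16.7-fold higher (14.4 to 19.4). For Tnfrsf9 the same ratio was 5.97 (5.17 to 6.91), near the value over all cells.

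With anti-CTLA4 antibody the genes went opposite ways. Tnfrsf4 was 1.72-fold higher than in the untreated library (1.61 to 1.83), and Tnfrsf9 was 2.56-fold lower (2.31 to 2.83). Among 6644 genes 2.65% were up by a factor of 2 or more and 1.32% down. Thinned shares followed the same directions: Tnfrsf4 was seen in 27.6% of antibody cells (26.3 to 28.9) and in 16.2% of untreated cells (14.1 to 18.6), and Tnfrsf9 in 5.15% (4.52 to 5.83) and 9.66% (7.96 to 11.6). Before thinning 60.7% of antibody cells had a Tnfrsf4 UMI and 17.3% a Tnfrsf9 UMI. Restricting both libraries to Foxp3-zero cells with a SMARTA receptor UMI left the ratios at 1.77 for Tnfrsf4 (1.64 to 1.92) and 2.65-fold lower for Tnfrsf9 (2.331 to 2.9997). The antibody library held more cycling cells, 24.9% against 5.66%. Among Foxp3-zero cells that were not cycling Tnfrsf4 was 2.07-fold higher (1.94 to 2.22) and Tnfrsf9 2.16-fold lower (1.94 to 2.41).

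The toxin libraries held far more of both transcripts. The library labelled Treg-depleted exceeded the untreated library 6.50-fold for Tnfrsf4 (6.12 to 6.92) and 4.23-fold for Tnfrsf9 (3.87 to 4.63), where 6.98% of 6529 genes passed a factor of 2 upward and 12.0% downward (456 and 783 genes, against 635 and 390 with TMM scaling). The combined library exceeded the antibody library 3.85-fold for Tnfrsf4 (3.77 to 3.93) and 9.15-fold for Tnfrsf9 (8.65 to 9.67), where 4.07% of 6514 genes did so upward and 3.73% downward. These comparisons share libraries with each other and with the antibody comparison. Between the 2 toxin libraries Tnfrsf4 differed by a ratio of 1.02 (1.00 to 1.03), a direction that turned under several settings, TMM scaling among them (0.941). Tnfrsf9 was 1.18-fold lower in the combined library (1.15 to 1.22), and 1.21% of 6261 genes passed a factor of 2 upward and 0.319% downward (76 and 20 genes, against 58 and 27 with TMM scaling).

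Most of these transcripts lay in Foxp3-positive cells. In the library labelled Treg-depleted such cells were 58.7% of cells, with 70.2% of all UMIs, and held 91.4% of Tnfrsf4 UMIs (91.0 to 91.7) and 89.9% of Tnfrsf9 UMIs (89.3 to 90.5). In the combined library they were 38.0% of cells, with 62.1% of all UMIs, and held 89.98% of Tnfrsf4 UMIs (89.6 to 90.3) and 84.1% of Tnfrsf9 UMIs (83.3 to 84.9). After thinning, 73.6% of Foxp3-positive cells of the library labelled Treg-depleted had a Tnfrsf4 UMI (71.1 to 76.0) and 25.5% of Foxp3-zero cells (22.6 to 28.5). The combined library gave 72.9% (70.7 to 75.1) and 18.2% (16.6 to 19.8). For Tnfrsf9 the shares were 45.2% (42.4 to 48.0) and 13.1% (10.9 to 15.5) in the library labelled Treg-depleted, and 43.5% (41.0 to 46.0) and 13.3% (11.9 to 14.7) in the combined one. Foxp3-positive cells were deeper, with medians of 6611.5 and 4599 UMIs against 3835.5 and 1952.5 in Foxp3-zero cells. With Foxp3 status called after thinning, which left 618 and 807 positive cells, the ratio of shares in the library labelled Treg-depleted went from 2.89 to 1.79 for Tnfrsf4, and in the combined library from 4.01 to 2.35 for Tnfrsf4 and from 3.28 to 2.24 for Tnfrsf9. The Tnfrsf4 shares were then 78.6% of positive and 44.0% of zero cells in the library labelled Treg-depleted, and 74.3% and 31.7% in the combined one. Cells whose Foxp3 UMIs were lost in thinning count as zero in that setting. In the antibody library 48.1% of the 54 Foxp3-positive cells had a Tnfrsf4 UMI (34.3 to 62.2), against 27.3% of Foxp3-zero cells.

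A UMI of a SMARTA receptor gene was seen in a minority of the Foxp3-positive cells, 275 of 1284 in the library labelled Treg-depleted and 307 of 1649 in the combined library. In the first, the intervals of both kinds overlapped: 72.0% of receptor-positive (66.3 to 77.2) and 74.0% of receptor-zero Foxp3-positive cells (71.2 to 76.7) had a Tnfrsf4 UMI, and 42.9% (37.0 to 49.0) and 45.8% (42.7 to 49.0) a Tnfrsf9 UMI. In the combined library receptor-positive cells had Tnfrsf4 less often, 58.5% (52.7 to 64.1) against 76.2% (73.8 to 78.5). Whether a cell without a receptor UMI lacks the receptor or was too shallow to show it was not tested.

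Without Foxp3-positive cells the toxin differences in CPM were smaller and in part gone. Foxp3-zero cells of the library labelled Treg-depleted had 525 CPM of Tnfrsf4 and 193 of Tnfrsf9, 2.00-fold (1.85 to 2.15) and 1.45-fold (1.30 to 1.62) above untreated Foxp3-zero cells. Foxp3-zero cells of the combined library had 487 CPM of Tnfrsf4, a ratio of 1.03 to the antibody library (0.988 to 1.07). Shares at equal depth did differ: 18.2% of these cells had a Tnfrsf4 UMI after thinning, against 27.3% of Foxp3-zero antibody cells. Tnfrsf9 in Foxp3-zero cells of the combined library, at 203 CPM, was 3.93-fold higher than in those of the antibody library (3.64 to 4.24). Its shares of cells lie inside the wide background intervals given further on. Narrowing further to cells with a SMARTA receptor UMI turned the direction for Tnfrsf4: the combined library, at 247 CPM, was 1.86-fold below the antibody library (1.73 to 2.00) at 459, and 1.61-fold below the library labelled Treg-depleted (1.47 to 1.77) at 398. Receptor-zero Foxp3-zero cells of the combined library stood at 747 CPM. For Tnfrsf9 the receptor-positive Foxp3-zero cells of the combined library were 3.64-fold above the antibody library (3.28 to 4.04) and differed from the library labelled Treg-depleted by a ratio of 0.990 (0.876 to 1.12). Over all cells, a different mix of sorted cells and a different level within SMARTA cells cannot be told apart.

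**Figure D2:**
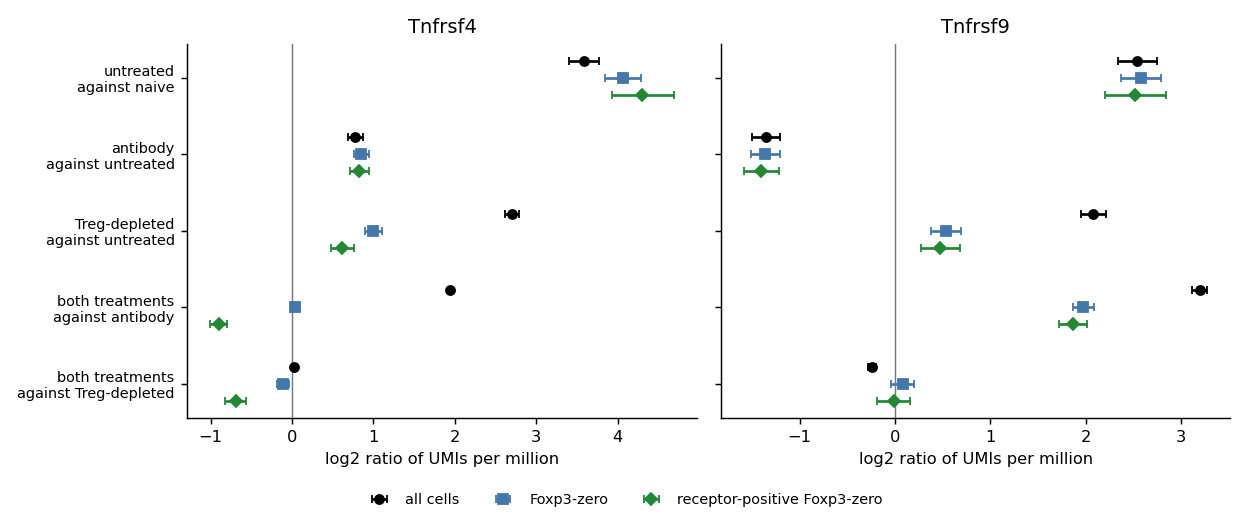
Log2 ratio of CPM between libraries for Tnfrsf4 (left) and Tnfrsf9 (right), over all cells, Foxp3-zero cells, and Foxp3-zero cells with a UMI of a SMARTA receptor variable gene; bars are exact 95% intervals and the vertical line marks no difference. The combined library against the antibody library runs from 3.85-fold higher over all cells to 1.86-fold lower in receptor-positive Foxp3-zero cells for Tnfrsf4, while Tnfrsf9 stays above the line in all 3 sets.

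Markers of other cell types also differed between the libraries. All 7 plasma cell markers were listed, and their summed level was 108 CPM in the naive, 75.0 in the untreated, 538 in the antibody, 3454 in the library labelled Treg-depleted and 1684 in the combined library, with Igkc, an immunoglobulin light chain, at 3013 and 1451 in the last pair. The untreated library had Sdc1, Mzb1, Igha and Ighg1 at 0. All 14 B cell markers were listed, with sums of 835, 959, 1293, 2283 and 1874 in the same order, and Ms4a1, Ebf1, Pax5 and Fcmr were at 0 in the untreated library. Of 17 myeloid or dendritic markers 12 were listed, at 651 to 854. Between 2 and 57 cells per library had at least 3 narrowed markers of another type, and leaving them out kept all 10 ratios between libraries within their intervals. Leaving out every cell with 2 or more markers of any whole list brought the Tnfrsf4 ratio of combined to antibody library to 1.12 and that of Tnfrsf9 to 4.005. Such whole lists take in many cells: 3 or more markers were found in 821 of 2186 cells of the library labelled Treg-depleted. Of those, 66.2% had a Tnfrsf4 UMI after thinning. Whether they were T cells, doublets or cells of another type was not tested.

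Cells of another type, by narrowed markers, gave the background for the shares. In the antibody library 12.3% of 57 such cells (5.08 to 23.7; median 6444 UMIs) had a Tnfrsf4 UMI after thinning, below the 27.6% of all cells (median 4797). For Tnfrsf9 the same cells gave 3.51% (0.428 to 12.1) against 5.15%, inside the background interval. In the library labelled Treg-depleted 5.00% of 20 such cells (0.127 to 24.9; median 8055.5) had each transcript. In the combined library 0 of 14 (median 5587) had Tnfrsf4, which allows up to 21.4%, and 14.3% (1.78 to 42.8) had Tnfrsf9. Against these limits the Tnfrsf9 shares of all cells (25.5%) and of Foxp3-zero cells (13.3%) of the combined library, and of Foxp3-zero cells of the library labelled Treg-depleted (13.1%), were not clear of background, nor was the Tnfrsf4 share of Foxp3-zero cells of the combined library (18.2%). The same holds for any other share below its library's limit, such as Tnfrsf9 in Irf4-positive cells of the combined library (35.2%). The Tnfrsf4 share of Foxp3-zero cells of the library labelled Treg-depleted (25.5%) stood just above its limit. In the naive library 0 of 21 (median 2017) had either, which allows up to 14.3%, and the untreated library had only 2 such cells. Both shares over all naive cells, 1.46% and 1.495%, lie below that naive limit.

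Cells differed in how much Tnfrsf4 they held as well as in whether they held any. At 1000 UMIs per cell, 18.4% of cells of the library labelled Treg-depleted and 15.1% of the combined library had 4 or more Tnfrsf4 UMIs, with a maximum of 31 and 34. In the antibody library that share was 2.28%, in the untreated 1.02% and in the naive 0.0895%. Tnfrsf9 reached 4 or more UMIs in 3.86% and 2.55% of cells of the toxin libraries and in under 0.1% elsewhere. Foxp3-positive cells with the transcript averaged 3.93 and 4.45 Tnfrsf4 UMIs in the toxin libraries, in the order given, and Foxp3-zero ones 1.93 and 2.42.

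Cycling cells were those with UMIs of at least 2 of 33 G2M genes after thinning, and the direction of the contrast depended on which cells were pooled. In the antibody library Tnfrsf4 was seen in 23.0% of cycling (20.5 to 25.5) and 29.1% of non-cycling cells (27.6 to 30.7), and Tnfrsf9 in 3.61% (2.60 to 4.86) and 5.66% (4.91 to 6.48). In the untreated library the shares were 13.1% of 61 cycling cells (5.84 to 24.2) and 16.4% for Tnfrsf4, and 4.92% (1.03 to 13.7) and 9.94% for Tnfrsf9, with overlapping intervals. The library labelled Treg-depleted had Tnfrsf4 in 53.9% of cycling and 54.0% of non-cycling cells, and Tnfrsf9 in 27.8% (24.8 to 30.9) and 34.9% (32.3 to 37.6). In the combined library both were more frequent in cycling cells, at 58.2% against 32.4% for Tnfrsf4 and 30.1% against 23.5% for Tnfrsf9. The naive library had only 11 cycling cells.

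Splitting by Foxp3 status took that last contrast apart. Cycling Foxp3-positive cells had Tnfrsf4 less often than non-cycling ones in the library labelled Treg-depleted, 63.1% (59.2 to 66.8) against 84.4% (81.3 to 87.1), and in the combined library, 67.8% (64.6 to 70.9) against 79.2% (76.1 to 82.2). Tnfrsf9 went the same way, at 32.7% (29.1 to 36.5) against 58.1% (54.1 to 62.0), and at 36.2% (33.1 to 39.5) against 52.6% (48.9 to 56.3). Non-cycling Foxp3-positive cells of the combined library held the highest Tnfrsf4 level of the groups with at least 50 cells, 4933 CPM, against 1899 in cycling ones. Foxp3-zero cells of the combined library were the exception for Tnfrsf4, with 32.2% of cycling (27.2 to 37.5) and 15.9% of non-cycling cells (14.3 to 17.5). Their Tnfrsf9 was 13.6% (10.1 to 17.7) and 13.2% (11.8 to 14.8). In the library labelled Treg-depleted Foxp3-zero cells differed little by cycling state, at 25.4% and 25.5% for Tnfrsf4 and 12.4% and 13.3% for Tnfrsf9. Counting 2 or more genes of the whole G2M list, which took in 81.6% of naive cells, turned the pooled contrast of the combined library to ratios of 0.813 for Tnfrsf4 and 0.729 for Tnfrsf9. Cycling cells were deeper, with medians of 5769.5 against 2256 UMIs in the combined library, and shares are given at equal depth for that reason.

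**Figure D3:**
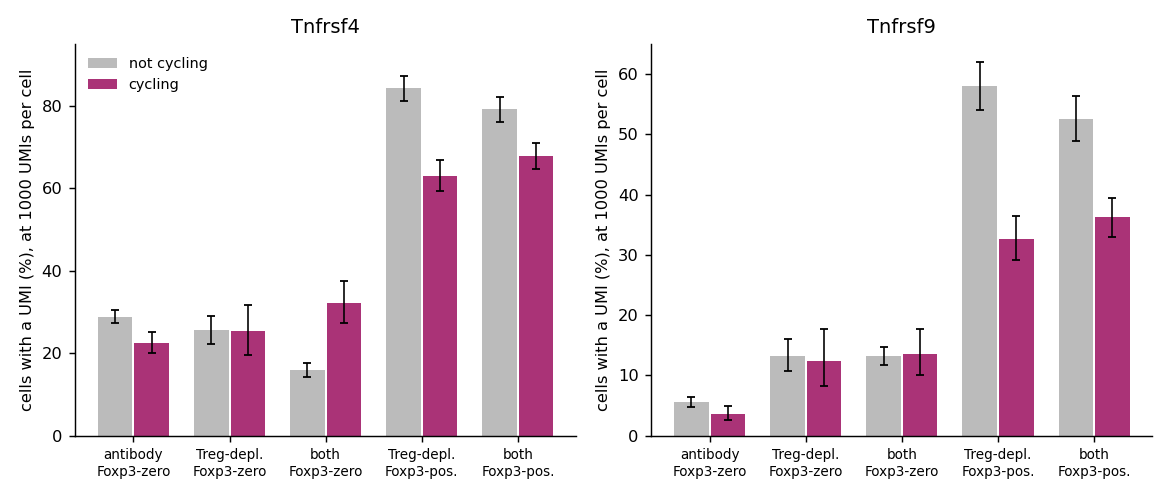
Share of cells with a Tnfrsf4 (left) or Tnfrsf9 UMI (right) at 1000 UMIs per cell, in percent, for cycling and non-cycling cells of 3 libraries split by Foxp3 status; bars are exact 95% binomial intervals. In Foxp3-positive cells the cycling bar is the lower one in both toxin libraries, and in Foxp3-zero cells of the combined library it is the higher one for Tnfrsf4, while the Tnfrsf9 bars, at 13.6% and 13.2%, overlap in their intervals.

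Irf4 encodes a transcription factor whose level follows the strength of T cell receptor signalling. Its own level lay between 48.9 and 55.6 CPM in the 4 tumor-node libraries and was 4.43 in the naive library. Tnfrsf4 was more frequent in cells with an Irf4 UMI in each tumor-node library: 21.1% (13.9 to 29.96) against 15.7% (13.5 to 18.1) in the untreated, where the intervals overlap, 38.3% (34.9 to 41.8) against 25.4% (24.0 to 26.8) in the antibody, 62.0% (57.3 to 66.5) against 51.8% (49.4 to 54.2) in the library labelled Treg-depleted, and 67.3% (63.1 to 71.4) against 36.4% (34.8 to 38.0) in the combined library. For Tnfrsf9 the intervals overlapped in the untreated library, with 11.0% (5.82 to 18.4) of Irf4-positive and 9.50% (7.73 to 11.5) of Irf4-zero cells, in the antibody library, with 4.23% (2.93 to 5.89) against 5.34% (4.64 to 6.10), and in the library labelled Treg-depleted, with 33.8% (29.4 to 38.4) against 31.6% (29.4 to 33.9). Its shares were 35.2% (31.1 to 39.6) and 24.1% (22.7 to 25.5) in the combined library. With Irf4 status read after thinning, the Tnfrsf9 shares there were 30.4% of 135 positive cells and 25.3% of zero cells. These shares pool Foxp3-positive and Foxp3-zero cells, which had Tnfrsf9 in 43.5% and 13.3%. The part of that mix in the Tnfrsf9 gap was not tested.

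The Irf4 contrast was then read within one Foxp3 status. Foxp3-positive cells of the library labelled Treg-depleted had Tnfrsf4 in 73.8% of Irf4-positive and 73.5% of Irf4-zero cells, and those of the combined library in 77.6% (73.2 to 81.7) and 71.4% (68.8 to 73.9). Foxp3-zero cells of the combined library stood at 33.6% (25.2 to 42.8) and 17.4% (15.8 to 19.0). Among Foxp3-zero cells of the antibody library, non-cycling Irf4-positive cells had Tnfrsf4 in 44.5% (39.9 to 49.2) and non-cycling Irf4-zero cells in 26.4% (24.8 to 28.0). Cycling ones had it in 28.4% (23.4 to 33.8) and 20.4% (17.7 to 23.3). Irf4-positive cells were deeper (6637 against 4509 UMIs at the median in the antibody library), and Irf4 status was read before thinning. With status read after thinning, over both Foxp3 classes, the Tnfrsf4 ratio of shares stayed at 1.51 in the antibody library. In the combined library it went from 1.85 to 1.57. The part of depth in Irf4 status within one Foxp3 status was not tested.

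**Figure D4:**
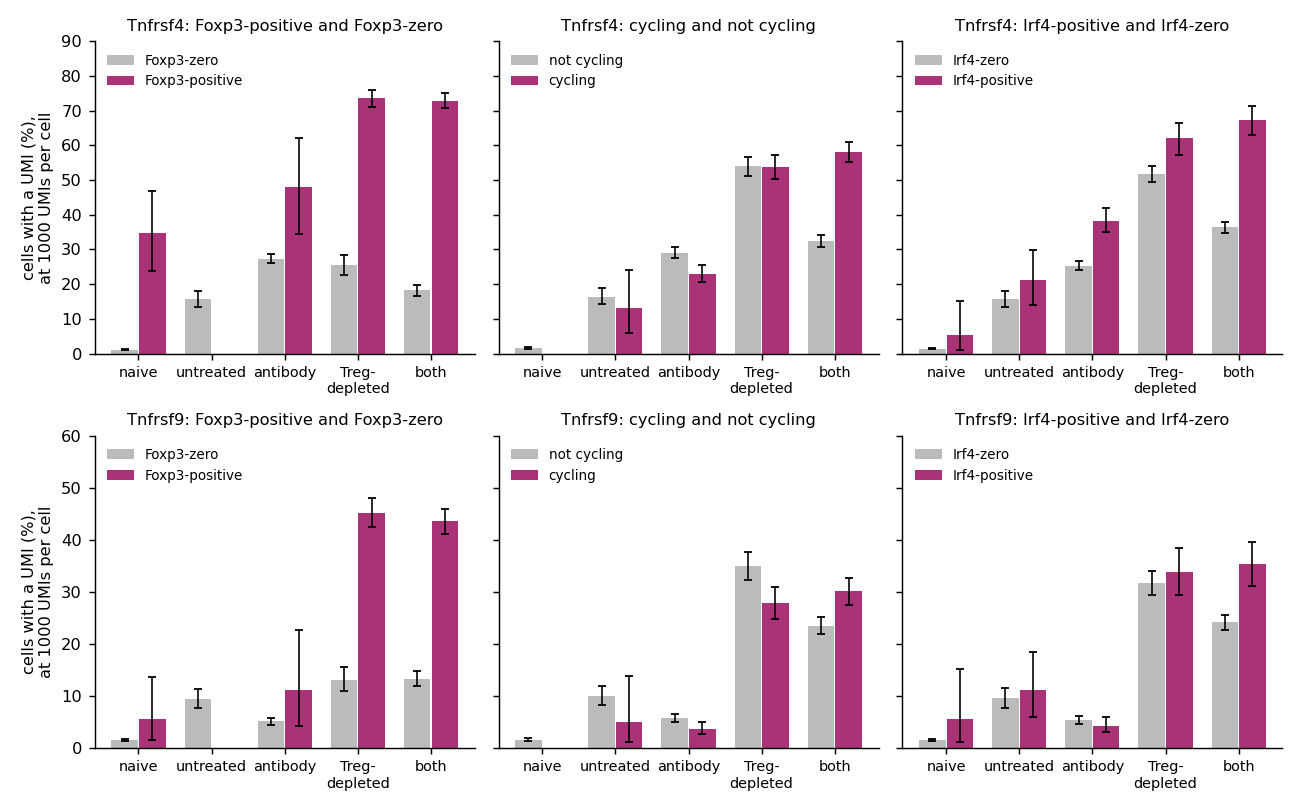
Share of cells with a Tnfrsf4 (top) or Tnfrsf9 UMI (bottom) at 1000 UMIs per cell, in percent, by Foxp3 status, cycling state and Irf4 status; bars are exact 95% binomial intervals, and groups of fewer than 50 cells are left out. The widest gaps lie between Foxp3-positive and Foxp3-zero cells of the toxin libraries, at 73.6% against 25.5% and 72.9% against 18.2% for Tnfrsf4.

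Tnfrsf9 was more frequent in cells that also held Tnfrsf4. Among cells with a Tnfrsf4 UMI, Tnfrsf9 was seen in 7.89% (3.67 to 14.5) of the naive, 18.9% (13.4 to 25.5) of the untreated, 6.83% (5.50 to 8.37) of the antibody, 46.0% (43.1 to 49.0) of the library labelled Treg-depleted and 42.6% (40.2 to 45.1) of the combined library. Among cells without it the shares were 1.40%, 7.87%, 4.51%, 15.7% and 13.9%. The gap in percentage points was smallest in the antibody library of the 5. It was present within both Foxp3 classes after toxin: 51.7% (48.5 to 55.0) against 27.1% (22.4 to 32.2) of Foxp3-positive cells and 22.3% (17.0 to 28.3) against 9.92% (7.74 to 12.5) of Foxp3-zero cells in the library labelled Treg-depleted. The combined library gave 51.2% (48.3 to 54.1) against 22.8% (18.9 to 27.0), and 19.2% (15.5 to 23.2) against 11.9% (10.5 to 13.5).

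**Figure D5:**
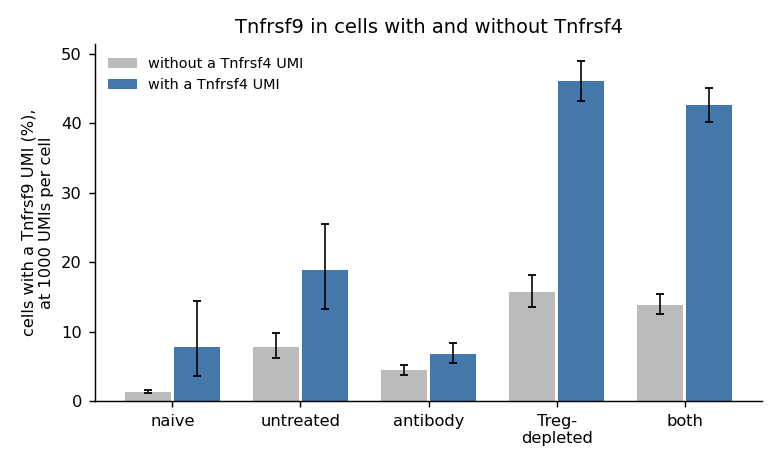
Share of cells with a Tnfrsf9 UMI at 1000 UMIs per cell, in percent, among cells with and without a Tnfrsf4 UMI, by library; bars are exact 95% binomial intervals. Tnfrsf9 is more frequent beside Tnfrsf4 in each of the 5 libraries, from 6.83% against 4.51% with antibody to 46.0% against 15.7% in the library labelled Treg-depleted.

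The rest of the pathway was read from lists, over genes with enough counts. Of the ligands, Tnfsf4 itself was low: 3 UMIs in the naive library (0.218 CPM), 38.2 CPM in the untreated, 21.6 in the antibody, 3.03 in the library labelled Treg-depleted and 6.76 in the combined one. Tnfsf9 was at 1.96, 9.41, 10.3, 20.1 and 15.7 CPM in the same order. Of the 14 listed TNF family ligands, 3 of 5 counted were at least 2-fold higher in untreated than in naive cells (median log2 ratio 2.01, over all genes -0.06). None of 7 passed 2-fold with antibody, 4 of 5 were lower in the library labelled Treg-depleted than in the untreated one (median -1.68, over all genes -0.21), and 6 of 6 were lower in the combined than in the antibody library (median -2.53, over all genes -0.07). Among them Tnfsf11, the ligand RANKL, was 7.15-fold and 13.6-fold lower, and Cd40lg, the ligand of CD40, was 3.32-fold and 7.68-fold lower. Between the toxin libraries 1 of 4 was lower, Cd40lg at 2.43-fold. Ligands without enough counts went both ways. From antibody to combined library Tnfsf10 was at 14.8 and 32.3 CPM, Cd70 at 0.107 and 5.10 and Tnfsf13b at 14.7 and 1.30. Tnfsf10 was at 15.4 in the untreated library and 30.1 in the one labelled Treg-depleted. Counted ligands such as Tnfsf14, at 63.4 and 6.23 from antibody to combined, passed the minimum through the library where they were high.

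Of the receptor family 19 of 23 genes were listed. Beside Tnfrsf4 and Tnfrsf9, Tnfrsf18 (GITR) was 2.01-fold higher in untreated than in naive cells (1.85 to 2.17), making 3 of 10 counted higher and 0 lower. With antibody 0 of 9 were at least 2-fold higher and 2 lower, Tnfrsf9 and, at 2.02-fold, Tnfrsf25, the death receptor DR3. In the library labelled Treg-depleted 4 of 9 were higher than in the untreated one and 1 lower: beside Tnfrsf4 and Tnfrsf9, Tnfrsf18 3.04-fold (2.85 to 3.24) and Tnfrsf1b, TNF receptor 2, 4.91-fold (4.05 to 6.00), with Tnfrsf25 2.29-fold lower. The combined library gave 4 of 7 higher than with antibody, again with Tnfrsf18 at 3.50-fold and Tnfrsf1b at 5.09-fold. Between the toxin libraries 0 of 7 differed 2-fold either way. Median log2 ratios of the family were 0.01, -0.19, -0.50, 1.81 and 0.01 in the 5 comparisons, in the order used so far, beside -0.06, -0.07, -0.21, -0.07 and 0.03 over all genes. The shares of all genes past a factor of 2 are those given with each comparison, 5.34%, 2.65%, 6.98%, 4.07% and 1.21% upward and 5.53%, 1.32%, 12.0%, 3.73% and 0.319% downward, and the counts of the lists below stand beside the same shares.

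Traf1, an adaptor that NF-kB itself induces and that binds both receptors' complexes, stood at 188, 270, 190, 240 and 276 CPM from naive to combined. Traf2, the adaptor shared by both receptors, stood between 58.0 and 77.4. Traf5, an adaptor of OX40, was at 93.99, 121, 129, 71.0 and 64.9, lower in both toxin libraries. Of 15 adaptor and non-canonical genes counted in each of the first 3 comparisons, 2 were higher (Tank and Nfkb2) and 1 lower (Map3k14) in untreated than in naive cells, 0 passed 2-fold either way with antibody, and 0 were higher and 2 lower (Map3k14 and Tank) in the library labelled Treg-depleted. The combined library had 0 of 14 past 2-fold against either the antibody library or the one labelled Treg-depleted. Median log2 ratios of this list were 0.12, -0.42, -0.51, 0.05 and 0.09. Of the 18 canonical NF-kB genes, 2 were higher and 1 lower in untreated than in naive cells, 0 and 1 with antibody, and 1 and 2 in the library labelled Treg-depleted. Of 17 counted, 2 were higher and 0 lower in the combined than in the antibody library, and 1 (Tnfaip3, 2.17-fold) and 0 against the library labelled Treg-depleted. Median log2 ratios were 0.26, -0.37, -0.68, -0.27 and 0.11. Bcl3, an atypical inhibitor, was 2.42-fold higher in the library labelled Treg-depleted than in the untreated one and 3.07-fold higher in the combined than in the antibody library, and Tnfaip3, the feedback inhibitor A20, was 2.27-fold lower with antibody and 2.69-fold higher in the combined than in the antibody library. Of 11 survival genes counted, 4 were higher and 0 lower in untreated than in naive cells, 1 and 0 with antibody, 1 and 3 in the library labelled Treg-depleted, 0 and 2 in the combined against the antibody library, and 0 and 0 between the toxin libraries. The highest of them in the first 3 comparisons was Birc5, which is also in the G2M list, at log2 ratios of 6.50, 2.30 and 2.96. It was the 1 higher gene with antibody and in the library labelled Treg-depleted. Bcl2l1 was 2.88-fold higher in untreated than in naive cells (2.43 to 3.41) and differed by at most 1.28-fold in the other 4 comparisons. Bcl2a1b and Bcl2a1d also differed, but they are near-identical copies whose reads the counting could split, so their values are uncertain. They were the 2 lower survival genes in the combined against the antibody library, at log2 ratios of -1.97 and -5.12. Both were also among the 4 higher in untreated than in naive cells, at 3.38 and 5.21. Bcl2a1d was among the 3 lower in the library labelled Treg-depleted, at -1.50.

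Icos, a co-stimulator of the CD28 family, was higher in each of the first 3 comparisons: 3.07-fold from naive to untreated, 2.70-fold with antibody and 4.83-fold in the library labelled Treg-depleted. Of 11 other co-stimulators counted it alone passed a factor of 2 upward in these comparisons, with 0, 0 and 3 lower. Of 13 receptor-response genes counted, 6 were higher in untreated than in naive cells, Irf4 (11.9-fold) foremost. With antibody 3 were lower (Cd69, Tnfaip3 and Nr4a3) and 0 higher, and in the library labelled Treg-depleted 5 were lower and 0 higher. Of the 15 listed Treg genes only 6 had enough counts between untreated and naive cells. Of these, 6 were higher and 0 lower in untreated cells (median log2 ratio 2.30). Genes left out went both ways: Foxp3 was at 8.21 CPM in naive and 7.84 in untreated cells and Gpr83 at 16.1 and 9.41. Il2ra was at 10.2 and 13.1 and Nt5e at 5.96 and 20.4. With antibody 0 of 6 counted Treg genes passed a factor of 2. Of the same list 6 of 10 were higher in the library labelled Treg-depleted and 8 of 11 in the combined against the antibody library, with 1 and 3 lower (medians 2.73 and 1.92), and 0 of 12 differed by a factor of 2 between the toxin libraries. Several of the higher genes passed the minimum only through the toxin library, so they could count only as higher. Among them, Foxp3 was at 7.84 CPM in the untreated library and 379 in the one labelled Treg-depleted, and Il2ra at 13.1 and 577. From antibody to combined library Foxp3 was at 4.25 and 348 and Il2ra at 4.83 and 584.

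Over the 5 libraries, the genes whose centred log2 profiles lay nearest to that of Tnfrsf4, among 6657 genes, were Top2a, Cdkn3, Hist1h2bj, Melk and Cenpf, at distances of 1.06 to 1.26. These genes are known from DNA replication and mitosis, and cycling cells made up 0.141%, 5.66%, 24.9%, 39.7% and 30.9% of the libraries in order. Hist1h2bj belongs to a histone family with near-identical copies and is uncertain. Nearest to Tnfrsf9 were Iigp1, an interferon-induced GTPase, Snx9, Tnfrsf1b, Hopx and Rgs1, a regulator of G protein signalling, at 0.810 to 1.22. All of these except Tnfrsf1b, level in untreated and antibody cells at 28.5 and 27.4 CPM, share the dip with antibody. Tnfrsf9 ranked at 107 for Tnfrsf4, and Tnfrsf4 at 73 for Tnfrsf9, at a distance of 2.32. With 5 points that share depth and cell mix, these distances only describe the libraries.

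Cells with and without each receptor transcript were compared for other genes, within 1 library and 1 Foxp3 class and with each cell at 1000 UMIs. In the antibody library, which had the most Foxp3-zero cells with a Tnfrsf4 UMI (1233 of 4512), the gene with the highest lower bound was Il1r2, a decoy receptor for interleukin 1, 6.84-fold more frequent per UMI than in Foxp3-zero cells without Tnfrsf4 (4.36 to 11.0). It was followed by Gadd45b (3.56-fold), a stress-response gene, Bcl2l1 (3.45-fold; 2.76 to 4.33), which encodes the survival protein Bcl-xL, the transcription factor Bhlhe40 (3.40-fold) and the chemokine Cxcl10 (3.65-fold). Cd83, an activation marker, was 2.84-fold higher, Nfkbid, an atypical NF-kB inhibitor, 2.90-fold, and Nfkb2, the non-canonical NF-kB precursor, 2.38-fold (1.90 to 2.98). Dusp14 and Pdzk1ip1 completed the 10. The cell cycle gene Mki67 was lower in the same cells, at a ratio of 0.649 (0.547 to 0.767), and so was Klf2, a gene of quiescent circulating T cells, at 0.631 (0.575 to 0.691).

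Foxp3-zero cells with Tnfrsf4 in the combined library had other companions, named here after their values were seen. They had 15.0-fold more Gzmb, 8.59-fold more Il2ra (6.46 to 11.5), 5.11-fold more Ctla4 (4.46 to 5.86) and 3.70-fold more Mki67 (2.93 to 4.66) than Foxp3-zero cells without it, while Bcl2l1 was 1.82-fold higher (1.01 to 3.16). Il2ra and Ctla4 are also highly expressed by Tregs, and whether some of these cells were Foxp3-expressing cells without a Foxp3 UMI was not tested. Leaving out Il2ra-positive cells as well put the ratio of combined to antibody library at 0.641 for Tnfrsf4 (0.608 to 0.676) and 3.34 for Tnfrsf9 (3.07 to 3.64). As Il2ra was higher in the Tnfrsf4 cells of the combined library, this step was bound to lower Tnfrsf4 there. Its UMIs in Foxp3-zero cells went from 3114 to 1546 in the combined library and from 13026 to 12238 in the antibody library.

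In Foxp3-positive cells of the combined library, 1170 with and 435 without Tnfrsf4, the leading companion was Il10, the inhibitory cytokine interleukin 10, with 110 UMIs against 3 (ratio 13.6; 4.54 to 67.1). Tnfrsf9 came second, 3.66-fold higher (3.04 to 4.44), then Isg15, an interferon-induced gene (3.67-fold), Gzmb, which encodes granzyme B (2.92-fold), and Tnfrsf18 (2.81-fold). Ebi3, a subunit of Treg cytokines, was 4.14-fold and Ctla4 2.66-fold higher. Cd74 was 2.92-fold higher, and Tmem158 and Adck5 rested on 1 and 2 UMIs in the cells without Tnfrsf4. Foxp3 itself was 1.25-fold higher (1.09 to 1.44) and Mki67 lower at 0.777 (0.676 to 0.896).

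Gzmb led the companions of Tnfrsf9 in both Foxp3 classes of the combined library. Among Foxp3-zero cells, 312 with and 2042 without Tnfrsf9, Gzmb was 4.50-fold higher (3.79 to 5.34), Ccl4, a chemokine, 6.89-fold (3.49 to 13.6), Cd160, a receptor of cytotoxic lymphocytes, 4.25-fold (2.77 to 6.47) and Nr4a3, induced by T cell receptor signalling, 4.12-fold (2.60 to 6.45). Slc19a1, Hivep3, Arhgap20, Trpm1 and Snhg15 followed on 14 to 46 UMIs each, and Tnfrsf4 was 2.45-fold higher (2.13 to 2.82). Among Foxp3-positive cells, 698 with and 907 without, Gzmb was 2.496-fold (2.35 to 2.65), Tnfrsf4 2.25-fold (2.13 to 2.38) and Il10 3.02-fold higher (2.00 to 4.66). Hopx was 2.08-fold, Slc16a3, a lactate exporter, 2.69-fold, Tnfrsf18 1.90-fold and Csf1, a macrophage growth factor, 3.16-fold higher, with Metrnl, Pdzk1ip1 and Cxcl10 making up the 10. Irf4 stood at a ratio of 1.01 (0.649 to 1.57) in these Foxp3-positive cells. Klf2, a gene of quiescent circulating T cells, was lower in Foxp3-zero cells with Tnfrsf9 than without it in all 5 libraries, at ratios of 0.527 in the naive, 0.349 in the untreated, 0.333 in the antibody, 0.783 in the library labelled Treg-depleted and 0.716 in the combined library.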

How the data were processed

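The authors deposited 5 tables of UMI counts, genes by cells, and worked with Cell Ranger 6.0.0, bcl2fastq 2.20, R 4.1.1 and Seurat 4.0.4 on mm10, per the submitters' processing notes, which give these names without a role or order. Filters before deposit are not given in the sources used here. Cells needed 200 genes and at most 10% mitochondrial UMIs, which removed 0 of 20149 cells. How doublets were treated is not given in the sources used here, and no doublet caller was run. Levels are UMIs summed over a library's cells, scaled to 1000000 UMIs of the 11924 listed genes (CPM), with exact Poisson intervals. Ratios have exact conditional binomial intervals and shares have Clopper-Pearson intervals (95%). Each cell was thinned to 1000 UMIs without replacement, so that 130 cells of the naive library, 22 of the untreated, 0 of the antibody, 35 of the one labelled Treg-depleted and 384 of the combined library were too shallow. A count of 0 is given with the limit of 3 counts.

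Foxp3, Irf4 and SMARTA receptor status were read before thinning and cycling state after it. The cycling list was narrowed from 52 to 33 genes (seen in under 1% of naive cells), and marker lists to genes in at most 2.5% of cells of every library; both changes were made after seeing the data. Genes at least 2-fold apart were counted among those with a mean of 25 CPM and 30 UMIs in all. Named genes were the 3 highest and 3 lowest of each list, the 5 nearest profiles (log2 of CPM plus 1, centred) and the 10 companions with the highest lower bound; others named are for their role. The members and lists were chosen with earlier results of these data known. Python 3.11.15, numpy 2.4.6, scipy 1.17.1 and edgeR 4.0.16 (TMM factors only) were used. Promoters came from RefSeq tables of GRCm38.p6. The scripts were tested on simulated data.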

Additional observations from a re-analysis of the deposited data

Results flagged for a closer look

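Tnfrsf4 in Foxp3-zero cells was 1.80 times as high with antibody as without it in the absence of toxin, and 0.927 times as high when both libraries had toxin, so the direction turned. In Foxp3-zero cells with a SMARTA receptor UMI the antibody ratios were 1.77 without toxin and 0.620 with it. In the same cells the toxin ratios were 1.54 without antibody and 0.537 with it. These opposite directions drew attention to the values, and with 1 library per group the difference between them was not tested.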

How the results depend on the processing

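With 1 library per group no replicate could be left out, and no paired analysis was possible because no group has a second library. Ratios below are those that left the counting interval of the reported ratio, or changed direction where that interval excluded 1 (for shares, where the intervals of both groups did not overlap); the cause was not tested. With TMM scaling, Tnfrsf4 ratios were 7.87 for Treg-depleted to untreated, 4.06 for combined to antibody, 0.941 for combined to Treg-depleted (turned). With TMM scaling, Tnfrsf9 ratios were 5.12 for Treg-depleted to untreated, 0.784 for combined to Treg-depleted. With the mean over single cells, Tnfrsf4 ratios were 1.95 for antibody to untreated, 8.05 for Treg-depleted to untreated, 3.21 for combined to antibody, 0.777 for combined to Treg-depleted (turned). With the mean over single cells, Tnfrsf9 ratios were 0.48 for antibody to untreated, 5.13 for Treg-depleted to untreated, 7.12 for combined to antibody, 0.665 for combined to Treg-depleted. Without cells holding 2 markers of another type, Tnfrsf4 ratios were 15.2 for untreated to naive, 2.13 for antibody to untreated, 3.67 for Treg-depleted to untreated, 1.12 for combined to antibody, 0.651 for combined to Treg-depleted (turned). Without cells holding 2 markers of another type, Tnfrsf9 ratios were 6.76 for untreated to naive, 0.435 for antibody to untreated, 2.13 for Treg-depleted to untreated, 4.005 for combined to antibody, 0.82 for combined to Treg-depleted. Without Foxp3-positive cells, Tnfrsf4 ratios were 16.7 for untreated to naive, 1.996 for Treg-depleted to untreated, 1.03 for combined to antibody, 0.927 for combined to Treg-depleted (turned). Without Foxp3-positive cells, Tnfrsf9 ratios were 1.45 for Treg-depleted to untreated, 3.93 for combined to antibody, 1.06 for combined to Treg-depleted (turned). In receptor-positive Foxp3-zero cells, Tnfrsf4 ratios were 19.6 for untreated to naive, 1.54 for Treg-depleted to untreated, 0.537 for combined to antibody (turned), 0.62 for combined to Treg-depleted (turned). In receptor-positive Foxp3-zero cells, Tnfrsf9 ratios were 1.39 for Treg-depleted to untreated, 3.64 for combined to antibody, 0.99 for combined to Treg-depleted. Without cells positive for the whole G2M list, Tnfrsf4 ratios were 1.94 for antibody to untreated, 7.95 for Treg-depleted to untreated, 4.89 for combined to antibody, 1.19 for combined to Treg-depleted. Without cells positive for the whole G2M list, Tnfrsf9 ratios were 4.43 for untreated to naive, 0.619 for antibody to untreated, 7.69 for Treg-depleted to untreated, 9.7 for combined to antibody, 0.78 for combined to Treg-depleted. Without cycling cells (chosen after seeing the data), Tnfrsf4 ratios were 1.97 for antibody to untreated, 7.9 for Treg-depleted to untreated, 3.53 for combined to antibody, 0.881 for combined to Treg-depleted (turned). Without cycling cells (chosen after seeing the data), Tnfrsf9 ratios were 0.469 for antibody to untreated, 5.64 for Treg-depleted to untreated, 8.12 for combined to antibody, 0.676 for combined to Treg-depleted. In cells with neither Foxp3 nor Il2ra (chosen after seeing the data), Tnfrsf4 ratios were 18 for untreated to naive, 1.26 for Treg-depleted to untreated, 0.641 for combined to antibody (turned), 0.898 for combined to Treg-depleted (turned). In cells with neither Foxp3 nor Il2ra (chosen after seeing the data), Tnfrsf9 ratios were 1.15 for Treg-depleted to untreated, 3.34 for combined to antibody, 1.17 for combined to Treg-depleted (turned). With status read after thinning, positive-to-zero ratios of shares were 1.79 for Tnfrsf4 by Foxp3, Treg-depleted, 2.35 for Tnfrsf4 by Foxp3, combined, 1.57 for Tnfrsf4 by Irf4, combined, 0.265 for Tnfrsf9 by Irf4, untreated (turned from 1.16, on 38 positive cells), 2.12 for Tnfrsf9 by Foxp3, Treg-depleted, 2.24 for Tnfrsf9 by Foxp3, combined, 1.2 for Tnfrsf9 by Irf4, combined. Among contrasts whose groups overlapped in their intervals, Tnfrsf9 by Irf4 in Treg-depleted went from 1.07 to 0.952 with that status, and Tnfrsf4 by cycling in untreated from 0.798 to 1.05 with 3 or more G2M genes. With the whole G2M list, cycling-to-other ratios were 0.833 for Tnfrsf4, Treg-depleted, 0.813 for Tnfrsf4, combined (turned), 0.729 for Tnfrsf9, combined (turned). TMM scaling shifted log2 ratios of all genes by 0.28 for Treg-depleted to untreated and by -0.11 for combined to Treg-depleted. The 10 counts of genes past a factor of 2 ran from 20 to 783, from 12 to 262 with a mean of 100 CPM and from 146 to 1937 with no CPM minimum, since fewer or more genes were counted; with TMM 783 became 390. All 10 ratios stayed within their intervals under the stricter cell filter and without cells of another type by narrowed markers. Shares of the untreated library rest on 1077 cells, the fewest of the 5.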
